A study of Capra hircus with 6 samples.

Results

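Among the circular RNAs (circRNAs) of goat back muscle, 87 of 6428 host genes encode chromatin regulators by name. They were chosen by the start of the host gene name (KMT, KDM, SETD, SMARC, CHD, ARID, HDAC, BRD, BAZ, KAT, NSD, TET, EZH or ASXL), and DOT1L, SATB1 and JMJD1C were added by their full names. SMARCA5 was left out by the same rule. Entries listed under a gene number instead of a symbol were added where they lay on the strand and within the span of a named gene. The muscle is the longissimus dorsi of Haimen goats, taken from fetuses at 75 days of gestation (fetus, 3 libraries) and from kids aged 1 day (kid, 3 libraries). No genotype or treatment is given for either stage. The libraries were made after digestion of linear RNA with RNase R, so the values measure circles and not the mRNA of a gene. The comparison asks which circRNAs differ between the stages.

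A circRNA forms when the donor splice site at the end of an exon is joined back to an acceptor site upstream, which closes one or more exons into a ring, and reads across that junction are called back-splice reads. Chromatin regulators write, erase or read chemical marks on histones and DNA, or use ATP to move nucleosomes. In muscle development they act with the myogenic transcription factors: acetyltransferases and SWI/SNF complexes help to open muscle genes, while class IIa histone deacetylases and Polycomb complexes hold them back.

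The 87 host genes gave 358 of the 25500 listed circRNAs, 309 exonic and 49 intronic. Together they held 5436 back-splice reads, 2226 in fetus and 3210 in kid. Their share of the back-splice reads lay between 1.49% and 1.96% in the 6 libraries, which held 33222 to 77111 back-splice reads each. Fetus 1 and fetus 2 kept 70.7% and 69.1% of their raw reads, against 84.0% to 87.9% in the other 4 libraries. The muscle identity was checked with 15 marker genes, of which 11 had circRNAs; these summed to 12515 ± 430 CPM in fetus and 23376 ± 2790 CPM in kid (mean ± SD, n = 3 per stage). CPM scale the reads of a host gene to the library total, with TMM factors. No circRNA was listed under the myosin heavy chain symbols MYH7, MYH1, MYH2 and MYH3, and host genes under other names were not searched. Markers of fibroblasts and matrix (10 of 10 with circRNAs) summed to 3640 ± 533 CPM in fetus and 1437 ± 321 in kid, and markers of proliferating cells (5 of 8) to 949 ± 223 and 187 ± 114. In bulk tissue, fewer cells of a type and less RNA per cell cannot be told apart, and the part of these cell types in the differences below was not tested.

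Circular RNA of chromatin regulators was concentrated in a few genes. KDM4C, KAT2B and ARID2 held 2509 of the reads, or 46.2%, and the 29 genes that reached 5 reads in 3 or more libraries held 92.7%. The other 58 genes had 1 to 25 reads each. The summed level of all 87 was 17401 ± 1522 CPM in fetus and 18597 ± 918 in kid, a difference smaller than the spread between the fetus libraries. Its direction depended on the TMM factors. As a share of all back-splice reads, without these factors, the members held 1.68%, 1.96% and 1.70% in fetus and 1.65%, 1.49% and 1.76% in kid. The histone demethylases were the class with the highest sum, at 5061 ± 1052 CPM in fetus and 6054 ± 351 in kid. SWI/SNF subunits followed with 3450 ± 190 and 3517 ± 382 CPM, and lysine acetyltransferases with 3184 ± 40.1 and 3600 ± 339.8.

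**Figure D1:**
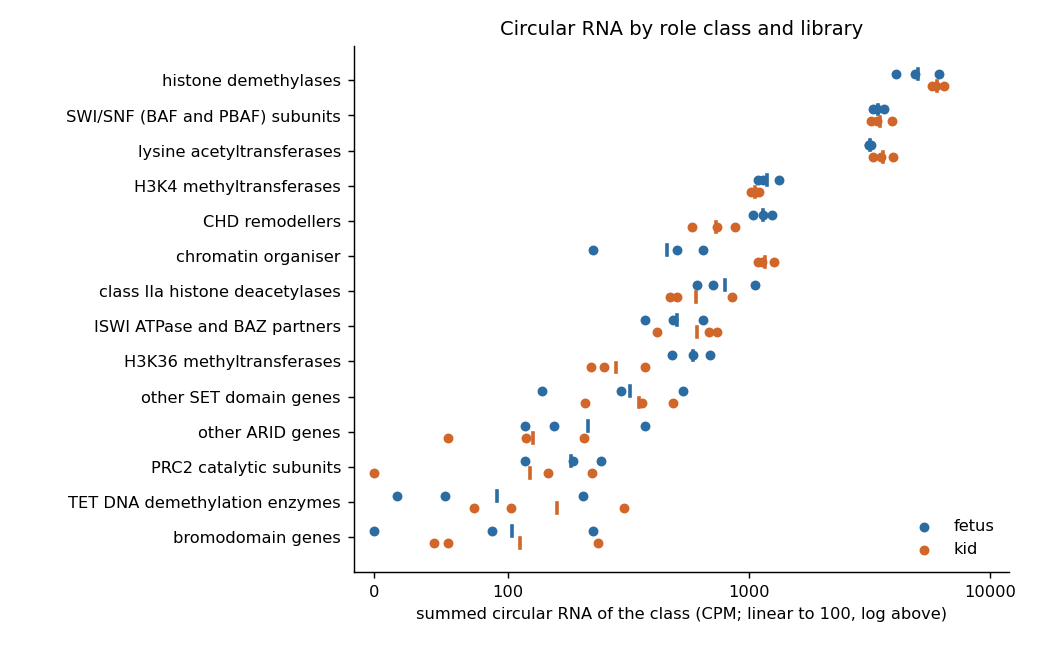
Summed circular RNA of each role class with at least 30 reads, in CPM on an axis that is linear to 100 and logarithmic above; points are libraries and bars are stage means (n = 3). Histone demethylases, SWI/SNF subunits and lysine acetyltransferases are the highest classes in all 6 libraries. The lowest mean shown is that of the TET enzymes in fetus and that of the bromodomain genes in kid.

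Between the stages, the circular RNA of 2 chromatin regulators rose and that of 1 fell. KDM5C, an X-linked eraser of lysine methylation on histone H3, was 5.05-fold higher in kid, and SATB1, a protein that organises chromatin loops at AT-rich DNA, was 2.63-fold higher. SMARCC1, a core subunit of the SWI/SNF remodelling complexes, was 1.75-fold lower in kid. The other 26 tested members did not pass an adjusted p of 0.05 (edgeR's quasi-likelihood test with Benjamini-Hochberg adjustment over all 1756 tested host genes). Over all tested host genes 19.2% passed, 11.0% higher and 8.14% lower in kid. Entries under a gene number were joined to members only within their span, but to other genes without that limit. The members' count and that share therefore rest on unlike sums. When members were also joined by gene number, chosen after seeing the data, 6 of 31 tested members passed, against 19.2% of 1755 host genes. The members' median log2 fold change, kid over fetus, was -0.09, with 14 positive and 15 negative values, and that of all tested host genes was 0.01. Fetus and kid libraries were fully separate for 14 of the 29 members, 7 higher and 7 lower in kid, against 37.1% of all tested host genes (19.8% higher and 17.3% lower). The labels do not say that each library comes from a different animal, so these p-values measure the spread between libraries. Where a fit below keeps fetus 3 as the only fetus library, fetus 3 is assumed to vary like the kid libraries.

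**Figure D2:**
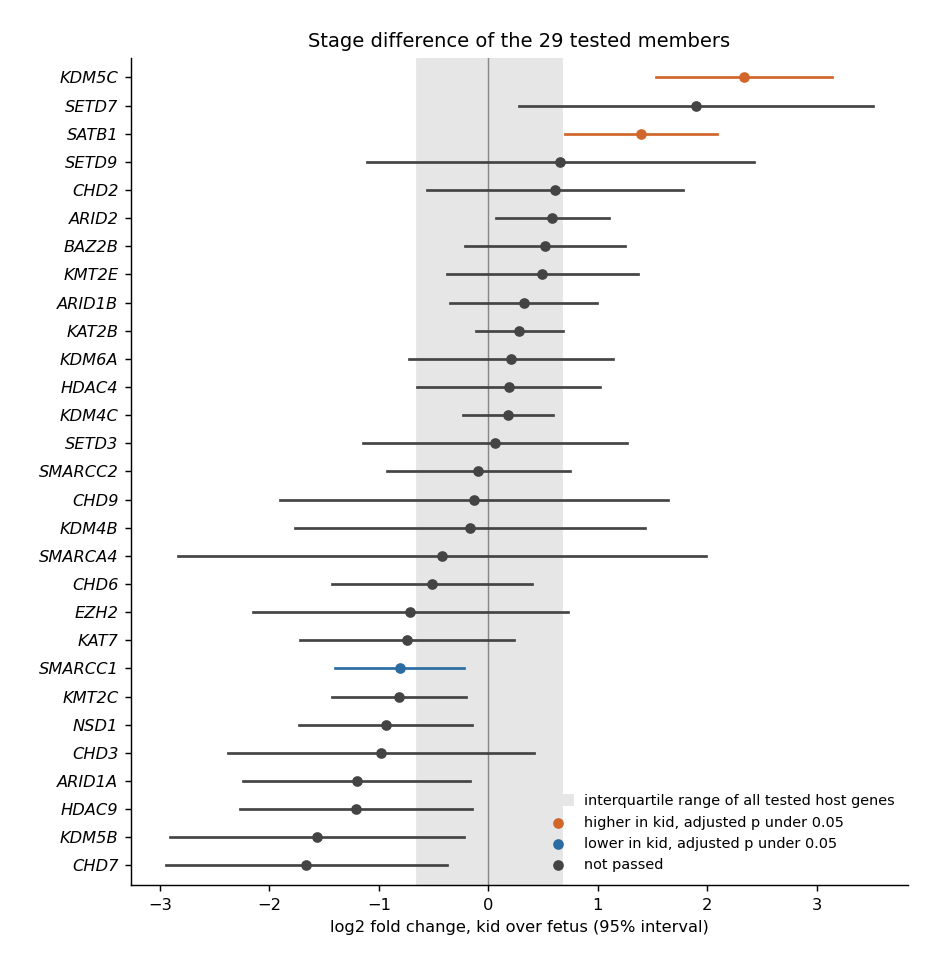
Log2 fold change of kid over fetus with its 95% interval for the 29 tested members; the grey band is the interquartile range of all 1756 tested host genes, from -0.65 to 0.68. KDM5C and SATB1 passed above 0 and SMARCC1 below 0, and the intervals of the other members that exclude 0 belong to genes whose adjusted p was over 0.05.

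Among the enzymes that write histone methylation, no member passed. KMT2C, which places single methyl groups on lysine 4 of histone H3 at enhancers, had 35, 25 and 48 reads in fetus and 35, 17 and 29 in kid. Scaled to depth, the level was 834 ± 98.0 CPM in fetus and 473 ± 42.4 in kid, and the stages did not overlap. The log2 fold change was -0.82 ± 0.30 (SE) with an adjusted p of 0.0574 by edgeR's quasi-likelihood test. KMT2C passed without TMM factors (adjusted p = 0.0178, edgeR), with at least 10 reads in 3 libraries (0.0435) and over exonic circRNAs only (0.0476). It did not pass in the other alternatives, with adjusted p of 0.157 with DESeq2, 0.280 scaled to valid reads, 0.312 without a read filter and 0.0901 to 0.169 in the edgeR fits without 1 library. NSD1, which methylates lysine 36 of histone H3, had 18, 18 and 35 reads in fetus and 16, 8 and 25 in kid. Its 3 kid libraries all lay below the fetus libraries in CPM (539 ± 64.5 in fetus, 277 ± 83.4 in kid), with a log2 fold change of -0.94 ± 0.38 and an adjusted p of 0.0859 in edgeR. SETD2, the enzyme of the trimethylated form of the same residue, was too low to test, with 7 reads in fetus and 1 in kid.

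The other methyltransferase members had few reads. SETD7, a lysine methyltransferase that also acts on proteins other than histones, had 5, 2 and 0 reads in fetus and 11, 9 and 17 in kid. The stages did not overlap, yet the log2 fold change of 1.89 ± 0.78 did not pass (adjusted p = 0.0921, edgeR). KMT2E, a relative of the methyltransferases that carries a SET and a PHD domain, had 247 ± 55.2 CPM in fetus and 352 ± 49.4 in kid (log2 0.49 ± 0.42, adjusted p = 0.456, edgeR). EZH2, the catalytic subunit of Polycomb repressive complex PRC2, had 7, 4 and 13 reads in fetus and 10, 0 and 10 in kid. Its log2 fold change of -0.71 ± 0.69 has a 95% interval from -2.15 to 0.73, which spans a fall and a rise. EZH1, the alternative catalytic subunit, had 1 read in fetus and 5 in kid. SETD3 shares the SET domain but methylates a histidine of actin. It had 13, 8 and 6 reads in fetus and 24, 9 and 6 in kid. SETD9 had 5, 2 and 1 reads in fetus and 8, 3 and 7 in kid, and neither of these SETD genes passed (adjusted p = 0.958 for SETD3 and 0.648 for SETD9, edgeR). For SETD3 the log2 fold change was 0.06 ± 0.58, and 1.09 ± 0.88 with fetus 3 as the only fetus library. That of SETD9 was 0.66 ± 0.85, and 0.07 ± 0.78 without fetus 3. DOT1L, which methylates lysine 79 of histone H3, held 3 reads in fetus and 7 in kid under this choice of entries. SETDB1 and SETDB2 act on lysine 9 of histone H3, and SETDB1 had 2 reads, both in fetus, while SETDB2 had 1 read, in kid. KMT5A and KMT5B act on lysine 20 of histone H4, and KMT5B had 1 read in fetus and KMT5A 1 in kid.

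KDM5C was the demethylase that changed. Its 3 fetus libraries held 6, 9 and 7 reads and the 3 kid libraries 53, 27 and 75. In CPM the level went from 182 ± 74.4 to 883 ± 205 (n = 3 each), with every kid library above every fetus library. The log2 fold change was 2.34 ± 0.39 (95% interval 1.53 to 3.14) with an adjusted p of 2.03e-04 in edgeR's quasi-likelihood test. It passed in each of the 6 fits that left out 1 library, with log2 fold changes of 2.04 to 2.70. KDM6A, the other X-linked demethylase with enough reads to test, removes methyl groups from lysine 27 of histone H3. It had 10, 9 and 26 reads in fetus and 41, 13 and 13 in kid, so the stages overlapped (log2 0.21 ± 0.45, adjusted p = 0.797, edgeR), and the direction turned without kid 1 to -0.28.

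KDM4C, an eraser of methylation on lysines 9 and 36 of histone H3, was the member with the most circular RNA. It had 109, 155 and 211 reads in fetus and 268, 151 and 297 in kid. The level of 3711 ± 832 CPM in fetus and 4188 ± 235 in kid differed by less than the spread between the fetus libraries. The log2 fold change was 0.18 ± 0.20, with a 95% interval from -0.23 to 0.59. KDM5B, a relative of KDM5C, had 8, 14 and 16 reads in fetus and 8, 0 and 10 in kid. In CPM its kid libraries lay below its fetus libraries, at 89.1 ± 78.7 against 301 ± 102 (log2 -1.57 ± 0.64, adjusted p = 0.0932, edgeR). KDM4B did not pass either, and 11 of the 16 demethylases, among them KDM1A with 5 reads in fetus and 14 in kid, were too low to test.

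**Figure D3:**
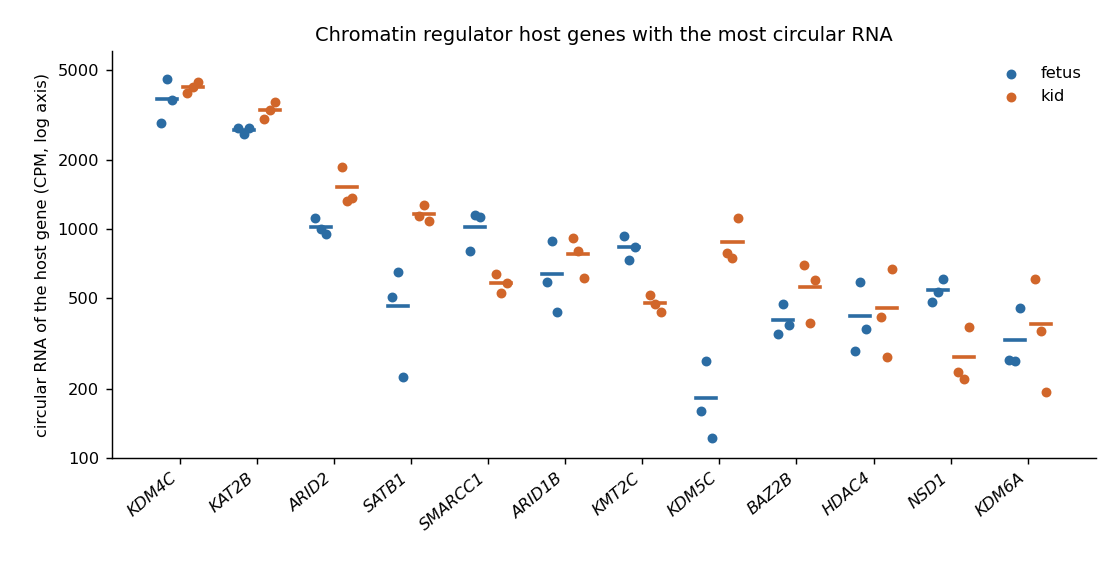
Circular RNA of the 12 members with the highest mean level, in CPM on a log axis; points are libraries and bars are stage means (n = 3 per stage). The kid libraries of KAT2B, ARID2, SATB1 and KDM5C lie above all their fetus libraries, and those of SMARCC1, KMT2C and NSD1 lie below. Of these genes SATB1, KDM5C and SMARCC1 passed. KDM4C is the highest member in all 6 libraries.

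Among the acetylation genes, KAT2B stood far above the rest. KAT2B (PCAF) is an acetyltransferase that in mouse muscle cells acetylates the myogenic factor MyoD. It had 104, 89 and 160 reads in fetus and 206, 120 and 241 in kid. Its level of 2723 ± 88.0 CPM in fetus and 3318 ± 275 in kid did not overlap between the stages. The difference was small, with a log2 fold change of 0.28 ± 0.19, and did not pass (adjusted p = 0.335, edgeR). KAT7, which acetylates histones H3 and H4, had 8, 15 and 19 reads in fetus and 16, 5 and 13 in kid (log2 -0.74 ± 0.47, adjusted p = 0.303, edgeR). The other 6 acetyltransferases were too low to test.

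The class IIa histone deacetylases bind the muscle transcription factor MEF2 and repress its targets. HDAC4 had 11, 20 and 21 reads in fetus and 28, 10 and 45 in kid, with overlapping stages (416 ± 155 CPM in fetus, 454 ± 200 in kid). Its log2 fold change was 0.19 ± 0.40 over all circRNAs, 1.09 ± 0.48 over exonic circRNAs only (adjusted p = 0.116, edgeR) and 1.02 ± 0.54 with host names as in the files (adjusted p = 0.230, edgeR). HDAC9 had 12, 13 and 18 reads in fetus and 5, 7 and 12 in kid. All kid libraries of HDAC9 lay below its fetus libraries (338 ± 38.8 CPM in fetus, 149 ± 65.3 in kid), with a log2 fold change of -1.21 ± 0.51 and an adjusted p of 0.0996 in edgeR. Of the class I deacetylases, HDAC2 had 2 reads, both in fetus 1, and HDAC3 had 1 read, in kid 2. The bromodomain genes, readers of acetylated histones, had no member with enough reads to test, and BRD7 had 0 reads in fetus and 7 in kid.

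SMARCC1 was the SWI/SNF subunit that passed. It had 30, 39 and 65 reads in fetus and 43, 19 and 39 in kid, and in CPM all 3 kid libraries lay below all 3 fetus libraries (1025 ± 196 CPM in fetus, 581 ± 54.8 in kid). The log2 fold change was -0.81 ± 0.28 (95% interval -1.40 to -0.22) with an adjusted p of 0.0484 in edgeR. The call rested on every library: in the 6 fits that left out 1 library the log2 fold change stayed between -0.97 and -0.71 while the adjusted p rose to between 0.0507 and 0.168. With DESeq2 the adjusted p was 0.125. Its paralogue SMARCC2 had 354 ± 130 CPM in fetus and 339 ± 30.0 in kid (log2 -0.09 ± 0.40). The 2 genes differ in the kind of circle counted. In SMARCC2, 2 intronic entries with a shared start held 98.1% of the reads, while all 10 circRNAs of SMARCC1 were exonic. Fibroblast and proliferation markers also were lower in kid, by the values given above, and their part in the SMARCC1 difference was not tested.

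The ARID subunits of SWI/SNF complexes went in different directions without passing. ARID2, a subunit particular to the PBAF form of the complex, had 42, 34 and 55 reads in fetus and 127, 48 and 92 in kid. Its level was 1025 ± 84.6 CPM in fetus and 1525 ± 305 in kid without overlap (log2 0.59 ± 0.25, adjusted p = 0.103, edgeR). ARID1A and ARID1B are alternative subunits of the BAF form. ARID1A had 13, 11 and 16 reads in fetus and 8, 5 and 10 in kid, and its kid libraries all lay below the fetus libraries (316 ± 35.0 CPM in fetus, 135 ± 15.7 in kid, log2 -1.20 ± 0.50, adjusted p = 0.0932, edgeR). ARID1B had 22, 30 and 25 reads in fetus and 62, 29 and 41 in kid, with overlapping stages (log2 0.32 ± 0.32, adjusted p = 0.529, edgeR). The ATPase genes of the complex were low: SMARCA4 had 11 reads in fetus and 9 in kid, and SMARCA2 had 1 and 13. Outside the complex, ARID5B had 18 reads in fetus and 7 in kid, and ARID4A had 5 and 9.

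The chromodomain remodellers did not pass. CHD7, which binds methylated lysine 4 of histone H3 at enhancers, had 9, 11 and 11 reads in fetus and 3, 3 and 7 in kid. Its CPM values did not overlap between the stages (252 ± 67.3 in fetus, 77.2 ± 30.4 in kid), and the log2 fold change of -1.66 ± 0.61 had an adjusted p of 0.0621 in edgeR. CHD6 had 23, 11 and 17 reads in fetus and 18, 6 and 26 in kid, and CHD2 had 4, 5 and 8 in fetus and 13, 6 and 16 in kid (adjusted p = 0.453 for CHD6 and 0.495 for CHD2, edgeR). The CPM of CHD2 were higher in all kid libraries, at 199 ± 36.8 against 131 ± 21.5. BAZ2B, a bromodomain partner of ISWI remodellers, had 13, 16 and 22 reads in fetus and 47, 14 and 40 in kid with overlapping stages (log2 0.52 ± 0.35, adjusted p = 0.338, edgeR). SMARCA1, an X-linked ISWI ATPase, had 8 fetus reads and 10 kid reads. The helicase genes SMARCAD1 and SMARCAL1 had 3 and 2 reads in fetus and 2 and 1 in kid.

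SATB1 counted 19, 22 and 13 reads in the fetus libraries and 77, 46 and 73 in the kid libraries. Its level was 460.0 ± 215 CPM in fetus and 1166 ± 95.4 in kid, and no kid library was as low as a fetus library. The lowest value, 226 CPM, was that of fetus 3. The log2 fold change was 1.40 ± 0.33 (95% interval 0.70 to 2.09) with an adjusted p of 0.00556 in edgeR, and it passed in each of the 6 fits without 1 library, with log2 fold changes of 0.98 to 1.75. With fetus 3 as the only fetus library the log2 fold change was 2.32 ± 0.46 (adjusted p = 0.0181, edgeR). The DNA demethylation enzymes TET2 and TET3 oxidise methylated cytosine. TET2 had 6 reads in fetus and 13 in kid and TET3 had 4 and 10, too few to test. The ASXL genes, cofactors of a histone H2A deubiquitinase, had 1 read in fetus (ASXL3) and 2 in kid (ASXL1 and ASXL2).

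At the level of single circRNAs, 35 member circRNAs had enough reads, 1 was higher in kid and 0 were lower at an adjusted p of 0.05, against 11.9% of all 1904 tested circRNAs (6.93% higher and 4.94% lower). At an unadjusted p of 0.05 there were 10 member circRNAs, against 26.5% of all tested circRNAs. The circRNA that passed closes exons 6 and 7 of KDM5C, 306 bases at positions 20523084 to 20523495 of the plus strand of chromosome X in the coordinates of the files. It had 6, 9 and 6 reads in fetus and 52, 27 and 75 in kid, and made up 98.9% of the reads of the gene. The log2 fold change was 2.33 ± 0.40 (adjusted p = 0.00623, edgeR), and with fetus 3 as the only fetus library it was 2.94 with an adjusted p of 0.0945. In the authors' deposited table, which gives fetus over kid, this circRNA has a log2 value of -2.40 and a q-value of 0.00186. The authors' deposited table marks 7 of the 358 member circRNAs as significant by an unadjusted p-value, 1.96%, against 3.26% of all 25500.

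In most tested members 1 circRNA prevailed. By listed entry, the median share of the leading circRNA was 75% of the reads of the gene, and in 21 of the 29 it was over 50%. For KDM4C the ring of exons 7 to 9 (292 bases; chromosome 8, 37869216 to 37890040, minus strand) took 90.8% of the reads, with 102, 146 and 196 reads in fetus and 240, 127 and 270 in kid. The donor site at the end of exon 9 was used by 7 of the 14 entries of KDM4C and 97.6% of its reads. The leading ring of ARID2 joins exons 17 to 20 (441 bases; chromosome 5, 33869887 to 33873423, minus strand) and took 84.9%. Exon 20 also closed a ring with exon 16, and the donor of exon 20 carried 96.7% of the reads of ARID2. In SMARCC1 the ring of exons 15 to 17 (340 bases; chromosome 22, 52057760 to 52059348, plus strand) had 30, 23 and 48 reads in fetus and 39, 15 and 31 in kid. Its log2 fold change of -0.70 ± 0.28 did not pass alone (adjusted p = 0.146, edgeR).

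KAT2B and SATB1 gave sets of nested rings. The leading KAT2B circRNA closes exons 5 and 6 (275 bases; chromosome 1, 157133204 to 157134775, plus strand), with 56, 53 and 93 reads in fetus and 134, 81 and 173 in kid. It held 64.1% of the reads, and its log2 fold change was 0.50 ± 0.19 (adjusted p = 0.127, edgeR). The rings of exons 3 to 8 and 3 to 6 had log2 fold changes of -0.12 ± 0.31 and 0.12 ± 0.35, and that of exons 3 to 4 had -0.75 ± 0.47. The donor of exon 6 closed 3 of the rings and 76.8% of the reads of KAT2B. In SATB1 the ring of exons 2 to 9 (1599 bases; chromosome 1, 155298873 to 155341767, minus strand) held 76.8% of the reads, with 14, 22 and 10 in fetus and 60, 33 and 53 in kid (log2 1.12 ± 0.41, adjusted p = 0.112, edgeR, and 2.17 ± 0.43 with fetus 3 as the only fetus library). The acceptor of exon 2 was shared by 5 of the 6 SATB1 rings and 93.2% of the reads, and 1 donor was shared by 2 rings and 83.6% of the reads. The shorter ring of exons 2 to 5 had 0, 0 and 2 reads in fetus and 8, 7 and 6 in kid (log2 2.92 ± 1.20, adjusted p = 0.156, edgeR). BAZ2B showed the same kind of sharing: the rings of exons 3 to 5 and 2 to 5 use 1 donor, which closed 3 rings and 99.3% of the reads, and their log2 fold changes were 0.96 ± 0.38 and -0.54 ± 0.86.

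**Figure D4:**
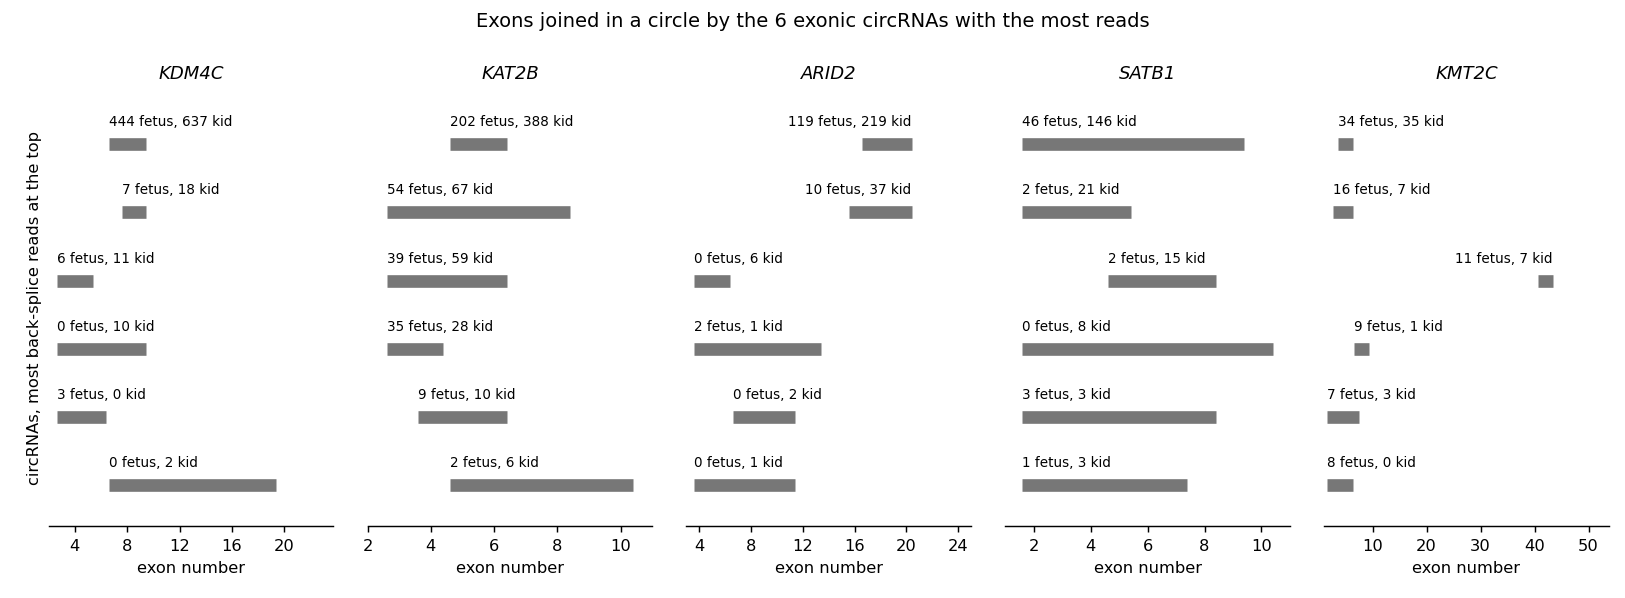
Exons closed into a ring by the 6 exonic circRNAs with the most reads and an exon number in the files, for KDM4C, KAT2B, ARID2, SATB1 and KMT2C; the x axis is the exon number, each bar spans the first to the last exon of a circRNA, and the reads of each stage stand above it. KDM4C and ARID2 are led by 1 ring, KAT2B and SATB1 hold several rings with a shared end, and KMT2C is spread over many small rings.

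Whether the circRNAs of a gene changed unequally between the stages was tested for the 8 members with at least 2 tested circRNAs, and 0 passed (edgeR's diffSpliceDGE, gene-level F test), against 5.82% of 361 host genes. At an unadjusted p of 0.05, reached by 16.3% of all 361, there were 2 members, HDAC4 (adjusted p = 0.246, edgeR) and KAT2B (adjusted p = 0.303, edgeR). In HDAC4 the exonic ring of exons 9 to 11 had 3, 8 and 10 reads in fetus and 15, 3 and 35 in kid. A second entry of the gene, listed as intronic and 1505 bases long, had 6, 12 and 11 in fetus and 5, 4 and 6 in kid. The reads of KMT2C and ARID1B were divided over many rings. KMT2C was listed with 26 circRNAs and ARID1B with 22, and their leading rings held 36.5% and 27.8% of the reads. NSD1 and KAT7 were each led by a small ring, of exons 19 to 20 (259 bases; chromosome 7, 71863171 to 71864683, minus strand) and of exons 8 to 9 (303 bases; chromosome 19, 36471752 to 36473897, minus strand). These had log2 fold changes of -0.98 ± 0.43 and -0.78 ± 0.44 (adjusted p = 0.178 and 0.316, edgeR).

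Exon number and size of the member rings were set beside those of all exonic circRNAs, without a test. The median exonic member circRNA had 3 exons and 504 bases, against 3 exons and 448 bases over all exonic circRNAs. A single exon was closed in 6.47% of the exonic member circRNAs and in 4.45% of all exonic circRNAs. Of the 277 exonic member circRNAs with exon numbers, 53 (19.1%) began at exon 2, 48 (17.3%) at exon 3 and 0 at exon 1, against 23.0%, 12.7% and 0.139% over all. The longest, in SMARCA2, joined 27 exons. Of the 358 member circRNAs, 138 (38.5%) had 1 read in all and 30 (8.38%) were found in all 6 libraries, against 34.3% and 5.63% of all circRNAs.

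The list holds pairs of entries whose starts and ends both lie within 1 base of each other, and these divide the reads of a ring. There were 24 such pairs in 19 members, 22 of them exonic. In every exonic pair 1 entry stood under the gene symbol and the other under the gene number. Counted as combinations of an exonic pair and a library, 91 had reads in 1 entry and 0 had reads in both. HDAC9 shows this pattern: 1 entry of the ring of exons 15 to 16 had 8, 6 and 0 reads in fetus and 2, 7 and 0 in kid, and its partner had 0, 0 and 9 in fetus and 0, 0 and 7 in kid. The same held for CHD6, where kid 1 had 15 reads in the partner entry and 0 in the entry that held the reads of the other 5 libraries. Sums per host gene are free of this division, but tests, read shares and detection counts of single entries are not. With entries within 1 base joined, an alternative chosen after seeing the data, the KDM5C ring was again the 1 member circRNA that passed (adjusted p = 0.00211, edgeR).

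**Figure D5:**
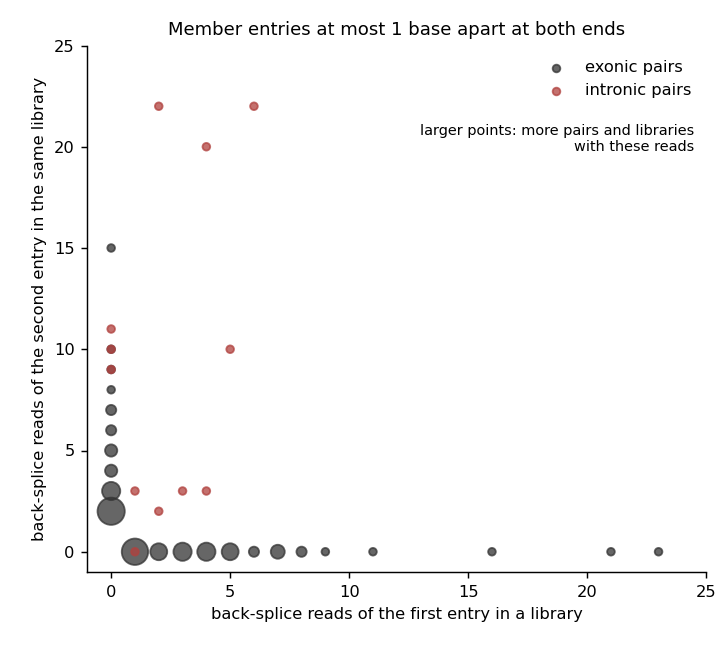
Back-splice reads of both entries of each member pair that lies at most 1 base apart at both ends, 1 point for each combination of reads in a library, with larger points where more pairs and libraries coincide. All exonic pairs lie on an axis, with reads in 1 entry and none in the other, while some libraries of the 2 intronic pairs (CHD3 and SMARCC2) have reads in both.

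The intronic entries fell into 2 kinds by how their host was written. The 41 member entries under a gene symbol had a median length of 277 bases, and 0 of them shared an end with an exonic circRNA of the gene. The 8 under a gene number had a median length of 7591 bases, and 7 of them began or ended within 1 base of an end of an exonic circRNA of the same gene. A further 10 intronic entries carried the gene number of a member but were left out by the span rule, and 4 of them shared such an end. Over all host genes, without a limit to a span, the counts were 0 of 1594 under a symbol and 532 of 1002 under a number. The 2 long intronic entries of KDM4C, of 33946 and 21521 bases, used the donor site at the end of exon 9. The intronic entry with the most reads among the members lay within intron 21 of SMARCC2 (211 bases; chromosome 5, 56529729 to 56529939, plus strand). It had 10, 9 and 22 reads in fetus and 20, 11 and 22 in kid (log2 -0.03 ± 0.37). For 16 members, among them CHD3, KDM6B, CHD4 and HDAC3, only intronic circRNAs were listed.

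A further 16 circRNAs with 504 reads carried the gene number of a member but lay partly or wholly outside the span of its named entries, in 10 genes. They were left out by the rule, and adding them was an alternative chosen after seeing the data. It raised the number of tested members to 31 and the number higher in kid from 2 to 5, with SMARCC1 again the 1 lower, where 19.2% of 1755 host genes passed (11.0% higher and 8.21% lower). The gene it changed most was JMJD1C, a member of the KDM3 demethylase family. A single entry of 27387 bases, listed as intronic (chromosome 28, 26070688 to 26098074, plus strand), had 10, 24 and 47 reads in fetus and 136, 50 and 90 in kid. With it JMJD1C went from 18 reads in all to 377 and was 2.44-fold higher in kid (675 ± 360 CPM in fetus, 1653 ± 404 in kid, adjusted p = 0.00901, edgeR).

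DOT1L and SETD7 also passed with the added entries. DOT1L then had 6, 3 and 2 reads in fetus and 23, 5 and 34 in kid, with overlapping stages (94.4 ± 62.8 CPM in fetus, 328 ± 184 in kid, log2 1.91 ± 0.62, adjusted p = 0.0364, edgeR). SETD7 gained an intronic entry with 0 reads in each fetus library and 8, 5 and 12 in kid. Its level was then 64.1 ± 66.8 CPM in fetus and 366 ± 77.5 in kid (adjusted p = 0.0112, edgeR). With 3 reads as the limit that a count of 0 allows, a member absent from the shallowest library could still have been present at up to 88.4 CPM. Such a limit covers counting error alone, because PCR can copy a molecule more than once.

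The 58 members below the read minimum held 396 reads, 185 in fetus and 211 in kid, with a median of 3.5 reads. Of these genes 14 had reads in fetus only, 13 in kid only and 31 in both, and none was tested for a difference between the stages. JMJD1C and DOT1L, which are among them, passed with the added entries outside their spans. A list of 187 other chromatin genes, further writers, erasers, readers and remodelling subunits, was set beside the members. Circular RNA was listed for 111 of them, 36 were tested, 0 were higher and 1 was lower in kid, and their median log2 fold change was -0.16. The gene that passed was PHF21A, a subunit of the complex of the demethylase KDM1A that binds unmodified histone H3. It went from 4607 ± 252 CPM in fetus to 3030 ± 566 in kid (log2 -0.61 ± 0.20, adjusted p = 0.0342, edgeR) and passed in 1 of the 6 fits without 1 library. PHF21A did not pass scaled to valid reads (adjusted p = 0.313, edgeR), without a read filter (0.164) or with fetus 3 as the only fetus library (0.233). With host names as in the files its log2 fold change was -1.82 ± 1.87 (adjusted p = 0.611, edgeR).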

How the data were processed

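RNA of 6 libraries was, per the labels' protocols, depleted of ribosomal RNA, treated with RNase R and sequenced on strand-marked libraries; cutadapt, FastQC and TopHat are named in the submitters' processing notes. No source used here names the circRNA caller or the genome build. Deposited by the authors were counts of back-splice reads, a normalized signal (SRPBM, not used for tests), a quality table with percent of reads kept, and a comparison with log2 fold changes, p-values and q-values, per the file headers. Chromosome names come from the RefSeq gene table given with the data, which also matched all 4563 host numbers to symbols. Reads were summed per host gene and tested with edgeR 4.0.16 in R 4.3.3 (TMM, robust glmQLFit, glmQLFTest, kid minus fetus, Benjamini-Hochberg over all tested genes) where at least 5 reads stood in at least 3 libraries; single circRNAs were tested alike and unequal change with diffSpliceDGE. SE was derived from the log2 fold change and the F statistic, and 95% intervals use the t quantile of the fit. The procedure was tested on simulated data. DESeq2 1.42.0 was an alternative. Tables and figures were made with Python 3.11.15.

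Named were members past an adjusted p of 0.05, the 12 with the highest mean CPM, and the 2 with the most reads in each of 20 role classes. Named circRNAs were those that passed and the 12 with the most reads, and other chromatin genes were named where they passed. One gene that this rule names is not reported here. ARID1A, CHD3, CHD4, CHD7, JMJD1C, KDM1A, KDM4B, KDM5B, KDM6B, SETD7, SMARCA2, SMARCA4, SMARCC2, ASXL3 and further rings of named genes were chosen after their values were seen. The members and lists were chosen with earlier results of these data known. Genes that share reads with similar copies or overlapping genes are uncertain.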

Additional observations from a re-analysis of the deposited data

How the results depend on the processing

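KDM5C and SATB1 passed under every alternative run. The number of members higher in kid was 2 to 3 when 1 library was left out. It was 3 with host names as in the files and 5 with members joined by gene number. The number lower was 1, against 4 without TMM factors (CHD7, KMT2C, NSD1 and SMARCC1). With at least 10 reads in 3 libraries it was 2 (KMT2C and SMARCC1). It was 0 when scaled to valid reads, with DESeq2, without a read filter and with the counts of the expression table. The number lower was also 0 with host names as in the files and in each fit without 1 library. Over exonic circRNAs only it was 1, KMT2C in place of SMARCC1. Without TMM factors the median log2 fold change of all host genes moved to -0.20 and 135 were higher and 203 lower in kid. Of all host genes 337 passed, 200 when scaled to valid reads, 69 with fetus 3 alone and 187 to 246 without 1 library. Of circRNAs 226 passed, 137 scaled to valid reads, 8 with fetus 3 alone (0 of the members, against 1) and 85 to 135 without 1 library. Unequal change passed in 21 host genes, 6 by Simes' method, 10 with at least 10 reads and 5 to 13 without 1 library.

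Same-numbered libraries did not deviate together (correlations 0.0124, 0.0316 and -0.0463). No pairing by replicate number was seen, but so few libraries per stage cannot exclude it. With the replicate number as a block 317 host genes, 89 circRNAs and 3 genes for unequal change passed, with 2 members higher and 0 lower; SMARCC1 had an adjusted p of 0.0742 (edgeR) and SETD3 a log2 of -0.019.

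Directions turned for differences near 0. Without TMM factors the log2 values were -0.016 for HDAC4, -0.029 for KDM4C, -0.0020 for KDM6A, -0.15 for SETD3, -0.059 for KAT2B exons 3 to 6 and -0.13 for KDM4C exons 7 to 9. The last was -0.032 with at least 10 reads and -0.0039 with fetus 3 alone, where KDM6A was -0.25. The SMARCC2 intron was 0.035 scaled to valid reads and 0.13 without a filter, and KAT2B exons 3 to 8 was 0.051 without a filter. Without 1 library these ranged from -0.18 to 0.51 (HDAC4), -0.28 to 0.58 (KDM6A), -0.42 to 0.52 (SETD3), -0.16 to 0.21 (SMARCC2 intron), -0.17 to 0.024 (KAT2B exons 3 to 8) and -0.11 to 0.19 (KDM4C exons 7 to 9). The cause was not tested. Few reads limit the 58 members below the read minimum, of which JMJD1C and DOT1L passed with the added entries outside their spans.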
